A study of Mus musculus with 4 samples.

Results

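The 6 genes described here, Fosb, Jdp2, Batf, Batf2, Batf3 and Atf3, encode partners of the JUN proteins in AP-1 and related dimers other than the FOS and JUN factors most often studied. They were examined for binding of the blood transcription factor RUNX1 and for trimethylation of histone H3 at lysine 27 (H3K27me3). A peak was assigned to a gene when its summit lay inside the gene body (GENCODE vM21, mouse build mm10) or within 50 kb of either end, so the choice of peaks used position and no measured value. Each RUNX1 summit was widened to 200 bp on both sides, overlapping stretches of the 2 lists were joined into sites, and the 6 windows held 33 of the 24972 RUNX1 sites so defined. Of the 33 sites, 10 had a member as the gene with the annotated transcription start nearest to a summit of at least 1 list. Of the 33, 5 lay in the windows of 2 members.

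AP-1 factors bind DNA as dimers of basic leucine zipper (bZIP) proteins. FOSB is a FOS family protein and needs a JUN partner. JDP2 and ATF3 are small bZIP proteins that bind AP-1 and CRE-type sequences with JUN proteins or with themselves, often as repressors, and ATF3 is induced by many kinds of stress. BATF, BATF2 and BATF3 lack a transactivation domain of their own, pair with JUN proteins and cooperate with interferon regulatory factors in immune cells, where BATF3 is needed by a class of dendritic cells. H3K27me3 is the mark placed by Polycomb repressive complex 2, and it typically covers the starts of silent developmental genes. A dominant-negative FOS pairs with JUN proteins in dimers that cannot bind chromatin.

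All 4 libraries came from mouse embryonic stem cells that carry a Tet-on transgene for dominant-negative FOS (dnFOS) and were differentiated in culture into floating hematopoietic progenitors collected on day 2. RUNX1 chromatin immunoprecipitation sequencing (ChIP-seq) was done in 1 library labelled as treated with doxycycline (+DOX), which induces dnFOS, and in 1 library labelled as untreated (−DOX). The untreated cells carry the same transgene, and no library from cells without it was analysed here. Each condition had 1 library, so no difference between the libraries could be tested and no p-value is given. A site found in 1 list may be a site that missed the calling threshold in the other.

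The records conflict about which library is which. The RUNX1 library labelled +DOX has a run name inside its peak list that says untreated, and the library labelled −DOX has a run name that says DOX. The treatment labels were followed, and every direction given below turns round if the run names are right. The paper reports more RUNX1 sites lost than gained with dnFOS, by peak height and after filters not applied here. By the labels, 28.4% of all RUNX1 sites here were in the +DOX list alone and 14.8% in the −DOX list alone. Which record is right was not tested. The titles of the 2 H3K27me3 libraries contradict their treatment labels, so these are called the library titled untreated and the library titled DOX, belong to no treatment group, and are described side by side with no statement on doxycycline. The protocol text of the H3K27me3 libraries names a RUNX1 antibody, while their antibody label is H3K27me3. As a check of the label, the starts of 12 regulators of other lineages carried an H3K27me3 summit of both lists within 1500 bp in 7 genes. That was found at 1 of 15 regulators and surface genes of blood progenitors, and at 9.4% of all protein-coding genes. These gene lists were chosen with earlier results of these data known, so the check is not an independent one.

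The RUNX1 list labelled −DOX held 18389 peaks and that labelled +DOX 21831, and the H3K27me3 lists held 6356 peaks (titled untreated) and 7233 peaks (titled DOX). Median peak widths were 312 bp and 306 bp for RUNX1 and 180 bp and 122 bp for H3K27me3. Neighbouring H3K27me3 peaks were counted separately, and whether they are parts of a wider marked stretch was not tested. A place without an H3K27me3 peak may carry the mark below the calling threshold. The lists give for each peak the fold enrichment at the summit and −log10 of the q-value but no read counts, so the sequencing depth of these libraries is unknown and values are given with their percentile within their own list. A percentile of 97 therefore means that the value was above that of about 97% of the peaks in the same list.

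The sequences that carry the description are printed here, in lower case on the strand named and with words of the searched motifs in capitals. All words were read on both strands. The word for RUNX factors was TGTGGTT, with a shorter form TGTGGT that it contains and another short form TGCGGT. The AP-1 word was TGACTCA, the CRE word TGACGTCA, and a hybrid of the C/EBP and AP-1 elements was searched as TGACGCAA. ETS factors were searched as CAGGAAA, as the variant of it that ends in G, CAGGAAG, and as the same pair of words beginning in CC, namely CCGGAAA and its own variant CCGGAAG. The word for PU.1 was GAGGAAGT, that for GATA factors was AGATAA, and that for C/EBP factors was TTGCNNAA, where N is any base. A match is a description of the letters only. The first pair are the strongest RUNX1 sites nearest to the Fosb start, the next is the Fosb promoter bound in both libraries (RefSeq, build GRCm38.p6, without transcribed bases), and the fourth is the RUNX1 site inside Fosb that was called in the −DOX library.
Fosb 6.6 kb upstream, chr7:19316574-19316774, plus strand: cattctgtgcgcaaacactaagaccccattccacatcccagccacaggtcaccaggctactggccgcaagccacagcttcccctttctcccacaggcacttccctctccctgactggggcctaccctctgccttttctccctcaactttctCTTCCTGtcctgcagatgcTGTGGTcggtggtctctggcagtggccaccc
Fosb 10.1 kb upstream, chr7:19320022-19320222, plus strand: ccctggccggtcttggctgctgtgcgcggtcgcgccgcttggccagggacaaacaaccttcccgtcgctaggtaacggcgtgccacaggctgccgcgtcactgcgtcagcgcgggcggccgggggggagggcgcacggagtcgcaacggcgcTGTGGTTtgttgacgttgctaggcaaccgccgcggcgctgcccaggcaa
Fosb promoter, chr7:19310052-19310295, minus strand: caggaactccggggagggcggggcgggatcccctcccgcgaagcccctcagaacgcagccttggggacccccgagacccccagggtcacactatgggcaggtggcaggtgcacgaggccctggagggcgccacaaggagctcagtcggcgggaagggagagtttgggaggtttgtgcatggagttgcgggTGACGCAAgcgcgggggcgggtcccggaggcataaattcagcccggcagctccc
Fosb inside the gene, chr7:19308379-19308579, plus strand: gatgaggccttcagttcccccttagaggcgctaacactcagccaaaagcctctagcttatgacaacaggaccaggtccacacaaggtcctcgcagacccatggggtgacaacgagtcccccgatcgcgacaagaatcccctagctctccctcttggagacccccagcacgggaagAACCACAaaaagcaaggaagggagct
The following sequences are the site between Jdp2 and Batf, the RUNX1 site in a Batf intron that has an identical copy elsewhere, and the Batf promoter (RefSeq), which had no peak in any list.
Jdp2 to Batf, chr12:85648043-85648243, plus strand: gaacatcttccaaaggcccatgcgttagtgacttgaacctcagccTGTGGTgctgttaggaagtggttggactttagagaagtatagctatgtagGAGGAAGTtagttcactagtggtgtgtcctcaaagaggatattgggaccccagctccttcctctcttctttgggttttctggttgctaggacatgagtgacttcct
Batf intron, chr12:85698286-85698486, plus strand: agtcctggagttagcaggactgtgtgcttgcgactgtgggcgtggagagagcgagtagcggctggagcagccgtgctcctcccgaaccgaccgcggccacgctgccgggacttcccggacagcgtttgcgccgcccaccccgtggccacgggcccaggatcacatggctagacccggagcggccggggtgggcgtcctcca
Batf promoter, chr12:85686470-85686668, plus strand: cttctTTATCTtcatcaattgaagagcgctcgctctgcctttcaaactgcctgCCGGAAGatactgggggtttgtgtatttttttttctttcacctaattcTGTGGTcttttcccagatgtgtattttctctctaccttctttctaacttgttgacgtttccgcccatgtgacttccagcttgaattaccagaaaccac
The last are the Batf3 start site, the strongest site between Batf3 and Atf3, which has near copies elsewhere, and the site at the coding start of Atf3 that was called in the +DOX library.
Batf3 start, chr1:191097414-191097614, plus strand: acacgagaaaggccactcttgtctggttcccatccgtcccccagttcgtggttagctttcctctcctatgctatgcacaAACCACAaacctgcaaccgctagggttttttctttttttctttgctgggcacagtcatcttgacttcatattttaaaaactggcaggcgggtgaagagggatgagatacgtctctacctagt
Batf3 to Atf3, chr1:191120895-191121095, plus strand: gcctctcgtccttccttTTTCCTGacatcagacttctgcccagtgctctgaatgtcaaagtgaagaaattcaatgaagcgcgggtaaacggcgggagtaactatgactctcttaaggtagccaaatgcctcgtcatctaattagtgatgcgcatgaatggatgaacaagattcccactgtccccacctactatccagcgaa
Atf3 start, chr1:191183494-191183694, plus strand: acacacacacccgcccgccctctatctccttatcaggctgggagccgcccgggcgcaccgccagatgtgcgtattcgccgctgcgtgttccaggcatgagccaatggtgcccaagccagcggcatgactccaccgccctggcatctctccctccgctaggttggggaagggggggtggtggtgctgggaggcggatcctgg

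Across the 6 windows 21 of the 33 RUNX1 sites (63.6%) had a summit in both lists, against 56.8% of all RUNX1 sites. The library labelled +DOX alone had 11 sites (33.3%, all sites 28.4%) and the library labelled −DOX alone had 1 (3.03%, all sites 14.8%). The single −DOX site lay inside Fosb, and 4 of the 11 +DOX sites lay in the Fosb window. At −log10 q of at least 5, 7 +DOX sites and 1 −DOX site (a different one, at Rtn2) were counted. With both lists cut to the same length the counts were 7 and 4, so they were less unequal. Shares over all sites at these settings are not given here, so these counts cannot be set against them. With the libraries exchanged, as the run names have it, the 11 sites belong to the untreated cells.

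The sites called in both lists ranked lower than such sites as a whole. Their median percentile, taking the higher of the 2 libraries, was 60.5, and that of all sites called in both lists was 70.5. For the 12 sites of a single list the median was 23.6, against 25.6 for all such sites, and they ran from 0.758 to 78.6. The percentile in the +DOX library minus that in the −DOX library ran from −25.3 at the Rtn2 start to 33.4 at a site in a Batf intron. All 21 differences lay within the range that holds the middle of all shared sites, from −31.6 (5th percentile) to 41.8 (95th percentile). In the plot of both libraries the 3 strongest sites of the Fosb window crowd the upper right corner, and the sites called in the +DOX library alone run down the left edge.

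**Figure D1:**
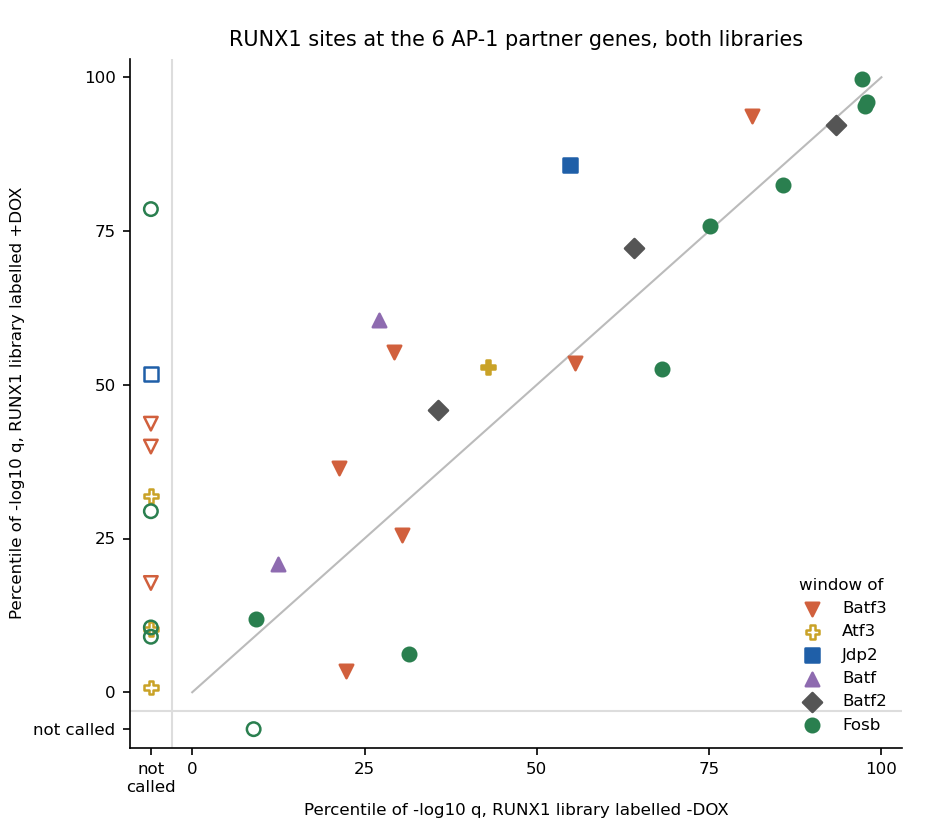
Each of the 33 RUNX1 sites is placed by the percentile of its −log10 q within the list labelled −DOX (horizontal) and within the list labelled +DOX (vertical), with open symbols for sites called in 1 list and a grey line of equality. The symbol gives the gene whose window holds the site, with the 4 sites shared by Batf3 and Atf3 drawn as Batf3 and the site shared by Jdp2 and Batf drawn as Jdp2. The 11 sites of the +DOX library alone reach a percentile of 78.6, and the single site of the −DOX library lies at 8.91.

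The genes differed widely in how many RUNX1 sites surrounded them. Fosb had 13 sites in its window, Batf3 had 9 and Atf3 had 8, whereas Batf and Batf2 had 3 each and Jdp2 had 2. The median over 21938 protein-coding genes was 3. Per 100 kb of window, Fosb had 12.1 sites, which was above 99.5% of genes, Batf3 had 8.10 (97.1%) and Atf3 had 5.41 (88.4%). Batf with 2.45 sites per 100 kb, Batf2 with 2.28 and Jdp2 with 1.42 lay near the median of 1.84. These counts include sites of neighbouring genes. The number of sites whose nearest start was the gene's own, for the summit of at least 1 library, was 4 for Fosb, 2 for Batf3 and 1 for each of the other 4 genes. For Batf2 this held for the −DOX summit alone, with Arl2 nearest to the +DOX summit. For Jdp2 it held for the +DOX summit alone, with Gm47863 nearest to the −DOX summit.

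**Figure D2:**
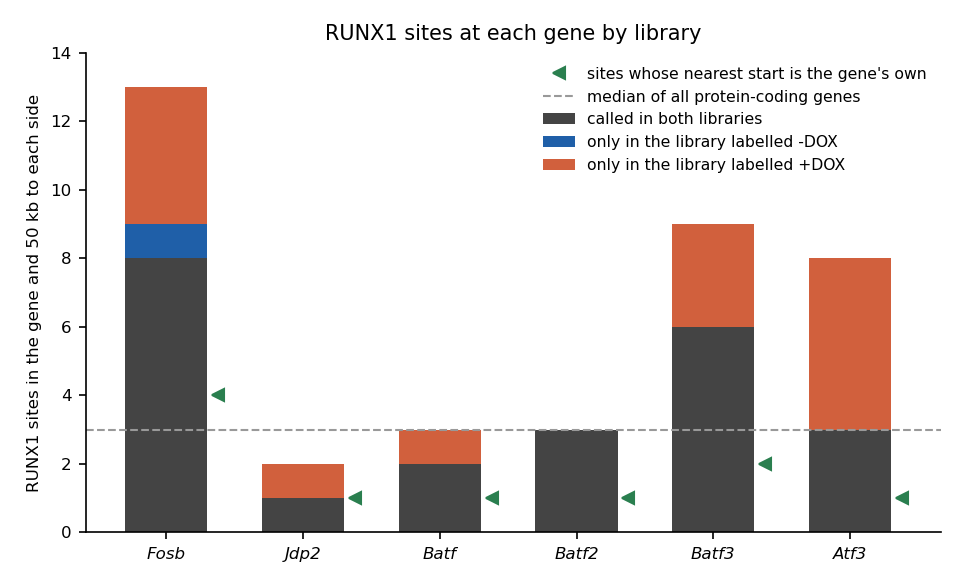
Bars give the number of RUNX1 sites in each gene and 50 kb to each side, split by the library or libraries in which they were called. Triangles mark the number of sites whose nearest start is the gene's own, and the dashed line is the median of 3 over all protein-coding genes. Fosb stands highest with 13 sites, of which 8 were called in both libraries.

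Fosb (chr7:19302696-19310051, minus strand), the FOS family member of the set, had the strongest sites. The site 6623 bp upstream of its start, in intergenic sequence, had a fold enrichment of 16.4 and −log10 q of 148 in the +DOX library, at percentile 99.7. The same site had a fold enrichment of 10.8 and −log10 q of 60.6 in the −DOX library, at percentile 97.2. It was thus close to the top of both lists. Its printed sequence holds an ETS word 54 bp and a short RUNX word 72 bp from the summit.

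A second site lay 10071 bp upstream of Fosb, at the 3′ end of the long non-coding gene D830036C21Rik, for which Fosb still had the nearest start. Its −log10 q was 68.2 in the −DOX library (percentile 97.9, fold 11.6) and 49.1 in the +DOX library (percentile 96.0, fold 8.40). The 2 upstream sites therefore ranked in opposite order in the 2 libraries, with all 4 values at percentile 96.0 or above. The sequence holds the longer RUNX word TGTGGTT 55 bp from the summit.

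The Fosb start itself carried a weaker site. Its summit lay 198 bp upstream of the start in the −DOX library (−log10 q 12.6, percentile 68.1) and 156 bp upstream in the +DOX library (−log10 q 9.01, percentile 52.5). No RUNX word was found within 100 bases of the summit. The hybrid word TGACGCAA occurred 2 times here, at chr7:19310098-19310105 inside the printed promoter and at chr7:19310296-19310303, just beyond its upstream end. That word is rare: it was found at 66 of all RUNX1 sites (0.264%) and in 0.438% of 32851 RefSeq promoters of 250 bases. The site called in the −DOX library alone lay 1121 bp downstream of a Fosb start, in an exon of a non-coding Fosb transcript, with −log10 q 3.51 at percentile 8.91, and holds AACCACA, the RUNX word on the other strand, 78 bp from its summit.

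The remaining 9 sites of the Fosb window had nearest starts of other genes. Strongest among them was the site 574 bp from the start of Vasp, which encodes a regulator of actin filaments, at percentile 97.6 in the −DOX library and 95.3 in the +DOX library. It holds an AP-1 word and a PU.1 word. A site 430 bp from a Vasp start was called in the +DOX library alone, with −log10 q 17.6 at percentile 78.6, the highest of the 12 sites of a single list, and holds a RUNX word 28 bp and an ETS word 8 bp from its summit. The site at the start of Rtn2, a reticulon gene, was at percentile 31.5 in the −DOX library and 6.25 in the +DOX library. Near the start of the non-coding Gm44698 a shared site was at percentiles 75.2 and 75.8, and 2 weak sites of the +DOX library alone, at 9.03 and 10.5, lay in the same stretch. The sites at the starts of Ercc1 (+DOX alone, percentile 29.4) and Cd3eap (percentiles 9.32 and 11.9) were also weak, and a shared site in a coding exon of Opa3 was at 85.7 and 82.4.

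**Figure D3:**
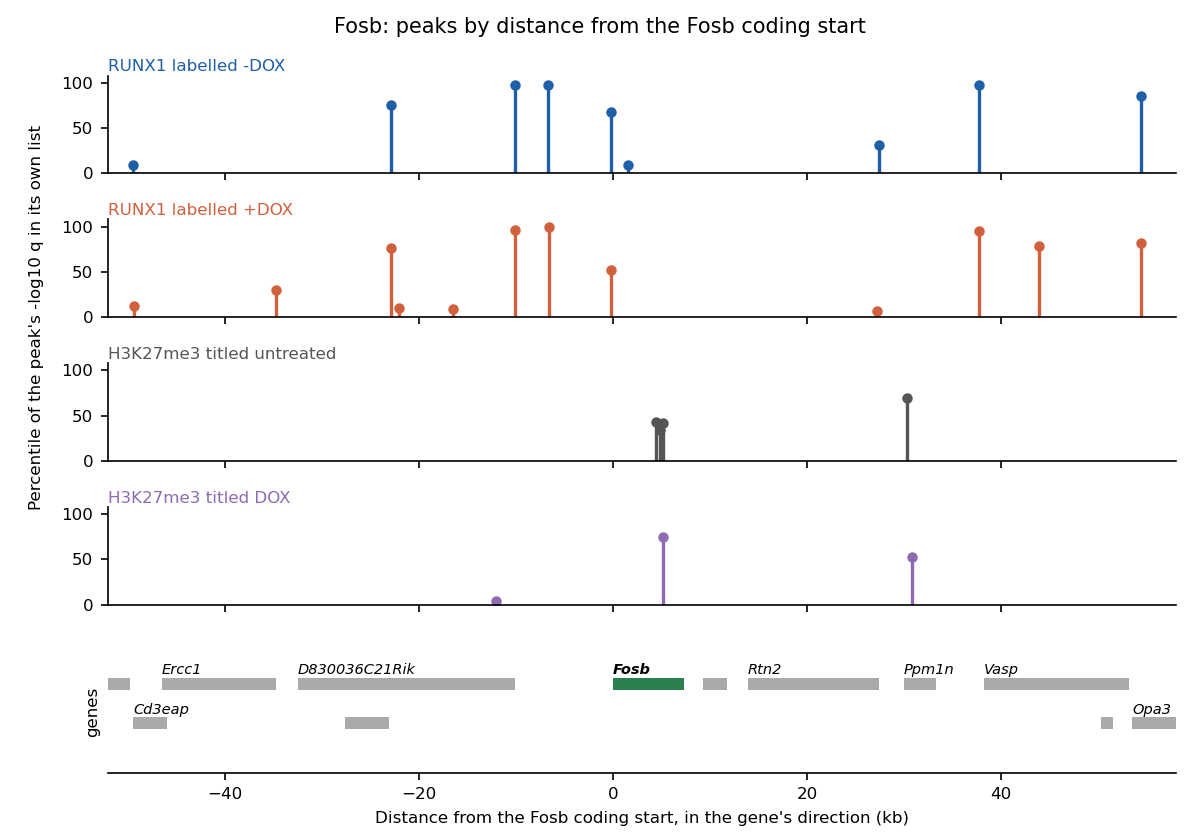
Peaks of the 4 libraries by distance from the Fosb coding start in the gene's direction (kb), with the height of each line giving the percentile of −log10 q in the peak's own list and bars below showing annotated genes. The tallest RUNX1 lines nearest to Fosb stand 6.6 kb and 10.1 kb upstream in both libraries. H3K27me3 peaks of both lists fall in the 3′ part of Fosb and at Ppm1n, and the library titled DOX has a weak one 12010 bp upstream of Fosb (percentile 3.73). No RUNX1 site of the window lies under any of them.

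H3K27me3 peaks in the Fosb window lay away from its start. The library titled untreated had 3 peaks in the 3′ part of Fosb, at percentiles 41.9, 33.7 and 43.0, and the library titled DOX had 1 there, at 74.9. The peaks at chr7:19304817-19304924 and chr7:19304872-19304985 of the 2 libraries overlap. Both lists also had a peak at Ppm1n, a phosphatase gene, at percentiles 69.7 and 52.2. The last was a weak peak of the library titled DOX (3.73) in an intron of D830036C21Rik. No RUNX1 site of the Fosb window lay under an H3K27me3 peak, and no summit of either H3K27me3 list lay within 1500 bp of a Fosb start.

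Jdp2 and Batf lie beyond Fos on chr12 in the same direction of transcription. The gene bodies of Fos (chr12:85473890-85477273) and Jdp2 (chr12:85599027-85639878) are 121.8 kb apart, and Batf (chr12:85686669-85709087) begins 46.8 kb after Jdp2 ends. RUNX1 sites were dense around Fos, with 7 sites in the gene and 50 kb to each side (6.77 per 100 kb). Of these, 4 were called in both lists and 3 in the library labelled +DOX alone. The paper names Fos among the genes with RUNX1 sites lost under dnFOS. RUNX1 sites were sparser between the genes, at 2.46 per 100 kb from Fos to Jdp2 and 2.14 from Jdp2 to Batf. The Batf gene, 22.4 kb long, held 2 sites (8.92 per 100 kb). Between the end of Fos and the start of Jdp2 there were 3 sites, all in the part nearest Fos, and none in the 102 kb before the Jdp2 start site. From there the next site was 48.7 kb away, and after the last site in Batf none followed for 119.4 kb. In the map of the neighbourhood, sites stand around Fos, at the Jdp2 start and inside Batf. Between Jdp2 and Batf lies 1 site, called in the +DOX library alone.

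**Figure D4:**
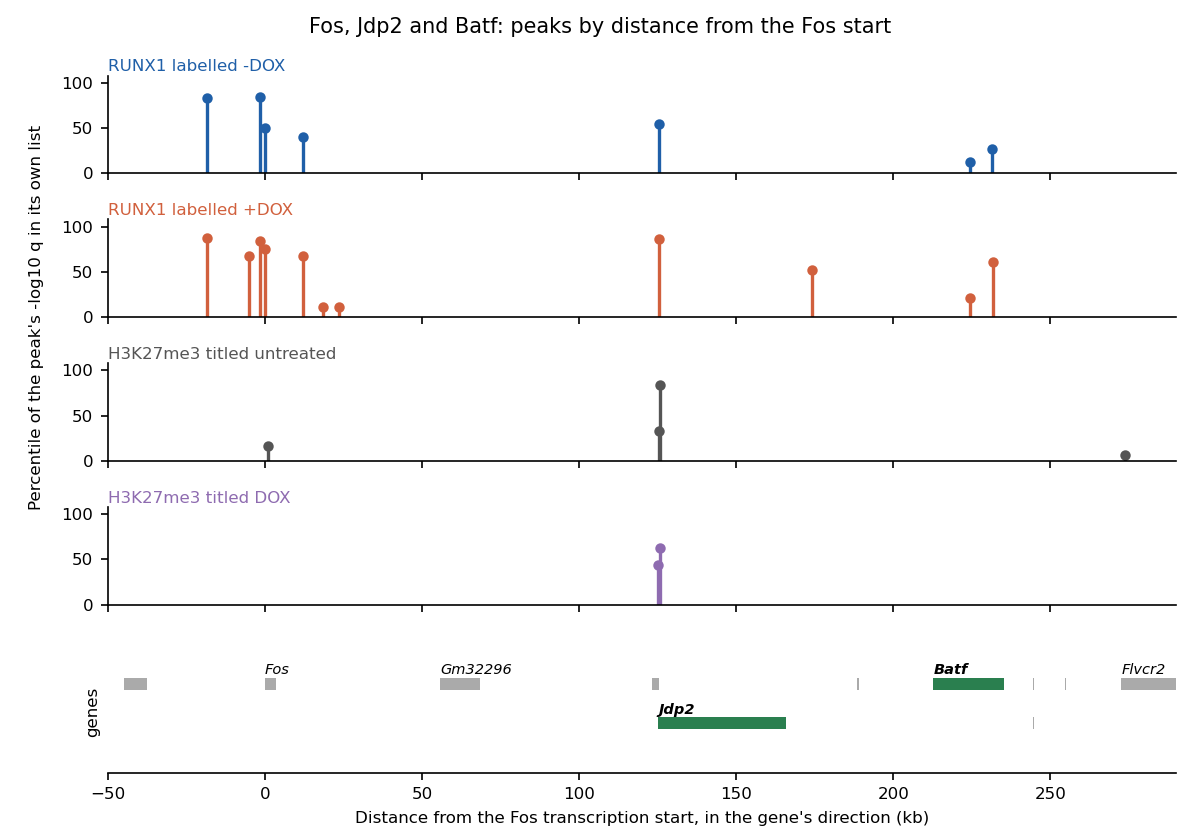
Peaks of the 4 libraries by distance from the Fos transcription start (kb), with the height of each line giving the percentile of −log10 q in the peak's own list and gene bodies below, members in green. A stretch of 102 kb without a RUNX1 site separates the sites around Fos from the Jdp2 start site, where the H3K27me3 peaks of both lists also fall, and the sites of Batf lie inside the gene rather than at its start.

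The Jdp2 start carried RUNX1 and H3K27me3 peaks together. Its RUNX1 site was at −log10 q 23.4 in the +DOX library (percentile 85.8, fold 8.25) and at 9.12 in the −DOX library (percentile 54.9, fold 5.10). The 2 summits lay 256 bp apart, and that of the −DOX library was 5 bp from the start of Gm47863, a non-coding gene read in the opposite direction. The +DOX percentile was higher by 30.9, a difference larger than at 89.2% of all shared sites. The H3K27me3 library titled untreated had 2 peaks here, at percentiles 32.7 and 84.3, and the library titled DOX had 2, at 43.4 and 62.7. The other 39.4 kb of Jdp2 held no peak of any list. The bound stretch is transcribed into the Jdp2 leader, so its sequence is not printed. Within 100 bases of its +DOX summit none of the searched words was found, and 81.6% of the bases were G or C.

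The only other site in the Jdp2 window lay in intergenic sequence, 45921 bp beyond the nearest Jdp2 start and 38526 bp before a Batf start. It was called in the +DOX library alone, with −log10 q 8.94 at percentile 51.7 and fold 5.85. Its printed sequence has the PU.1 word GAGGAAGT 2 bp from the summit and a short RUNX word 53 bp from it. PU.1 is a myeloid ETS factor. Its word was present at 2 of the 33 sites (6.06%) and at 4.67% of all RUNX1 sites.

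Batf had no peak of any list within 1500 bp of a start, although its promoter holds RUNX words. The RefSeq promoter has TGTGGT at chr12:85686571-85686576 and AACCACA at chr12:85686663-85686669, across the annotated start, together with an ETS and a GATA word. Of all RefSeq promoters, 18.6% hold a short RUNX word and 4.40% hold the longer RUNX word. The RUNX1 sites of the gene lay in its introns. The site with the Batf start nearest, 9094 bp downstream of it, was weak in both libraries, at percentile 12.4 (−log10 q 3.85) in the −DOX library and 20.8 (−log10 q 4.88) in the +DOX library. The other intronic site was at 27.1 in the −DOX library and 60.5 in the +DOX library, with summits far enough apart that the nearest start, that of the small RNA gene Gm47285, lay 13243 bp or 12979 bp away.

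The weak intronic Batf site has an exact copy in the reference genome. The stretch chr12:85698166-85698584, of 419 bases, is identical on the opposite strand to chr17:84187225-84187643 within Zfp36l2, which encodes an RNA-binding protein that promotes mRNA decay. None of the 4 lists had a peak on the copy of the printed bases themselves, and of the longer stretch a −DOX peak reached the edge. Reads that fall entirely within the stretch cannot be told apart between the 2 places, and their part in the peak was not tested. H3K27me3 was called in the Batf window by 1 peak, at percentile 6.85 in the library titled untreated, in a coding exon of Flvcr2.

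Batf2 (chr19:6140983-6172476, plus strand) had 3 sites, each called in both lists and each at the start of another gene. The strongest was 514 bp from the start of Sac3d1, at percentiles 93.4 (−DOX) and 92.3 (+DOX). The site at the start of Snx15, a sorting nexin gene, was at 35.7 and 45.9. The third overlapped the first annotated Batf2 start, which belongs to a non-coding transcript, and also the start of Arl2, a small GTPase gene read in the opposite direction. It had −log10 q 11.3 in the −DOX library (percentile 64.0) and 14.5 in the +DOX library (percentile 72.2). The starts of the coding Batf2 transcripts, at chr19:6164439 and chr19:6164440, had no peak within 1500 bp in any list. No H3K27me3 peak lay in the Batf2 window.

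Batf3 (chr1:191097847-191108945, plus strand) and Atf3 (chr1:191170296-191218039, minus strand) are neighbours, with 61.4 kb between their 3′ ends, and 4 sites lay in both windows. At the Batf3 start a site was called in both lists 333 bp upstream of an annotated start. It was at percentile 55.4 in the +DOX library (−log10 q 9.71) and at 29.3 in the −DOX library (−log10 q 5.48). Its sequence has AACCACA, the RUNX word on the other strand, 18 bp from the summit. A second, weaker site 48 bp downstream of a start was higher in the −DOX library, at percentile 22.3, than in the +DOX library, at 3.50.

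The second Batf3 site lay under H3K27me3 peaks of both lists. Within 100 bases of its summit none of the searched words was found, and 76.1% of the bases were G or C. The library titled untreated had peaks at percentiles 46.0 and 3.20 around the coding start, and the library titled DOX had peaks at 56.6 and 48.7. The widest, in the library titled DOX, spanned 482 bp. The site with the RUNX word, upstream of these, lay under neither list. Batf3 and Jdp2 were thus the 2 members with both signals at the start.

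The strongest site between the genes lay 20.5 kb downstream of the nearest Batf3 start. It was at percentile 81.3 in the −DOX library (−log10 q 19.2, fold 8.20) and 93.7 in the +DOX library (−log10 q 38.5, fold 11.9). The library titled DOX had an H3K27me3 peak in the same place, 84 bp wide, at percentile 89.4. The assembled chromosomes of the reference hold 14 further places with at least 90% identity over at least 80% of the printed bases, with identities of up to 97.7%. Copies on other sequences of the reference, or missing from the reference, were not counted, so the number of copies may be higher. RUNX1 peaks of both lists lay on 6 of these copies and a RUNX1 peak of the +DOX library on 7, and H3K27me3 peaks lay on 5 (titled untreated) and 6 (titled DOX). Peaks of all 4 libraries thus recurred on copies of this sequence. Of the 33 sites, 31 had no such copy, and what part the copies have in these peaks was not tested.

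Atf3 had no site called in both lists at a start. The site 254 bp upstream of its inner coding start was called in the +DOX library alone, at −log10 q 6.07 and percentile 31.9, and its printed sequence holds none of the searched words. The 2 sites in introns between its outer and inner starts were also of the +DOX library alone and were weak, at percentiles 0.758 and 10.3. The start of the long transcript, at chr1:191218039, had no peak. A site called in both lists, at percentiles 42.9 (−DOX) and 52.9 (+DOX), lay at the start of the non-coding D730003I15Rik, 6456 bp upstream of Atf3, and holds an AP-1 and an ETS word. The H3K27me3 peak nearest to Atf3 was in the library titled untreated, 1641 bp upstream of the inner coding start, at percentile 23.2.

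Between the 2 genes the other shared site, 496 bp from the start of the non-coding Gm38161, was at percentiles 55.6 and 53.6. The 2 further sites of both windows were of the +DOX library alone, at 39.9 and 43.7. Upstream of Batf3 the sites at Tatdn3 (30.5 and 25.6) and at the shared start of Nsl1 and Tatdn3 (21.3 and 36.4) were called in both lists, and 1 in an intron of Nsl1, a kinetochore gene, was called in the +DOX library alone at 17.8. Apart from the multicopy stretch, the highest percentile of any site in the 2 windows was thus 55.6.

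**Figure D5:**
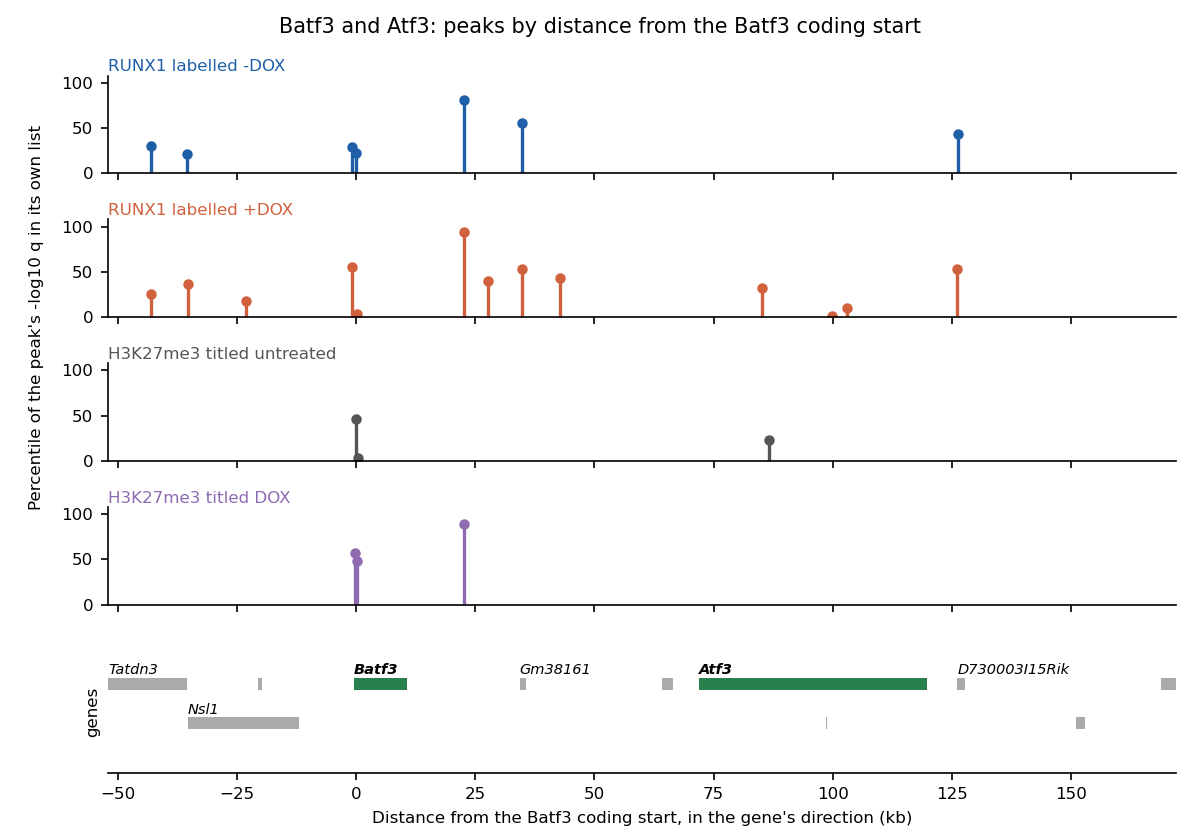
Peaks of the 4 libraries by distance from the Batf3 coding start in the gene's direction (kb), with the height of each line giving the percentile of −log10 q in the peak's own list and gene bodies below, members in green. The highest RUNX1 lines, at percentiles 81.3 and 93.7, stand on the multicopy stretch between the genes, together with an H3K27me3 peak of the library titled DOX at 89.4. Within Atf3 the RUNX1 lines appear in the +DOX library alone.

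Seen by their starts, 4 of the 6 members, Fosb, Jdp2, Batf2 and Batf3, had a RUNX1 summit of both lists within 1500 bp, against 40.2% of protein-coding genes. With starts of protein-coding transcripts alone, a choice made after the data were seen, Batf2 dropped out and 3 remained. At −log10 q of at least 10 in both lists the count was 1, Batf2. The shares of protein-coding genes under these narrower settings are not given here. Among 9 other AP-1 genes (Fos, Fosl1, Fosl2, Jun, Junb, Jund, Atf2, Atf4 and Atf7) all 9 had a RUNX1 summit of both lists within 1500 bp. Their start percentiles ran from 5.17 at Jun to 99.4 at Jund in the −DOX library. The members' start percentiles in that library were 29.3 at Batf3, 54.9 at Jdp2, 64.0 at Batf2 and 68.1 at Fosb.

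An H3K27me3 summit of both lists within 1500 bp of a start was found at 2 of the 6 members, Jdp2 and Batf3, against 9.4% of protein-coding genes. Both signals together were found at the same 2 genes, against 2.67% of protein-coding genes. Of the 9 other AP-1 genes, Fosl1 alone had H3K27me3 in both lists, and Fos had a weak peak at percentile 16.2 in the library titled untreated. Of the 33 RUNX1 sites, 2 lay under H3K27me3 peaks of both lists (all sites 4.99%) and 3 under a peak of at least 1 list (all sites 7.76%), the third being the multicopy stretch. Among cells of a culture, RUNX1 and H3K27me3 at the same start may come from the same or from different cells, which these libraries cannot tell apart.

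The starts of the members also differed in base composition. The ratio of observed to expected CpG dinucleotides around a coding start was 0.838 to 0.890 at Fosb, 0.844 and 0.817 at the first 2 starts of Jdp2, 0.790 at Batf3 and 0.756 at the inner start of Atf3. The median over 21853 genes was 0.614, with each gene taken by its highest start, so a lower start of a gene has no like measure beside it. A further Jdp2 start, at chr12:85600018, had 0.449 and still had peaks of all 4 lists within 1500 bp. The ratio was 0.340 at Batf, 0.244 at Batf2 and 0.248 at the outer start of Atf3, which are the coding starts with no peak of any list within 1500 bp, together with an inner Jdp2 start at 0.109. With 6 genes this is a description and was not tested.

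The RUNX word was present at 7 of 33 sites (21.2%, 95% Wilson interval 10.7 to 37.8), against 14.3% of all RUNX1 sites. The short RUNX words were present at 13 sites (39.4%), against 37.5%. ETS words were present at 12 sites (36.4%, interval 22.2 to 53.4), against 29.9%, and the AP-1 word at 4 sites (12.1%, interval 4.82 to 27.3), against 4.99%. The hybrid word TGACGCAA was present at 1 site, that of the Fosb start (3.03%, interval 0.537 to 15.3), against 0.264% of all sites. Its interval lies above the share over all sites but rests on 1 site, while the intervals of the RUNX and ETS words hold theirs and that of the AP-1 word holds it at its lower end. No site had the CRE word, which a count of 0 limits to a share of 9.09%, against 1.02% of all sites. GATA words were at 3 sites (9.09%, all sites 11.7%) and the C/EBP word at 1 (3.03%, all sites 6.50%). The 4 AP-1 words lay at sites with nearest starts of Vasp, Gm44698, Ercc1 and D730003I15Rik, so no site whose nearest start was a member held one.

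By the percentiles of the strongest peak of each list at a start, the genes most like each member were found over the 4 libraries as the smallest Euclidean distance, with 0 for no peak. Fosb was closest to Gak, Tmem175 and Fubp3 (distances 0.629, 0.629 and 0.706), which share its pattern of RUNX1 without H3K27me3. Batf3 was closest to Cenpv (4.55), Ppara and Jph1, and Jdp2 to Cblc (12.6), Serpine2 and Smpd3, which carried all 4 signals. Batf2 was closest to Arl2, with which it shares the peak, and then to Rad21 and Ubap1. Atf3 was closest to Gm21974, Vkorc1 and Glipr1, with a peak of the +DOX library alone. Batf had no peak at a start to compare.

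The window edge cut through few sites. Just inside 50 kb lay the Cd3eap site of the Fosb window, at 49372 bp from the gene in the +DOX library, and the multicopy site at 49301 bp from Atf3. Just outside lay RUNX1 peaks near Ppp1r13l at 50150 bp (percentile 8.57) and 50413 bp (percentile 36.1) from Fosb.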

How the data were processed

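RUNX1 and H3K27me3 were profiled by ChIP-seq in 4 libraries from double-crosslinked chromatin. The submitters' processing notes name Bowtie2 2.2.9, MACS2 2.1.1 and build mm10. The study's methods describe adapter trimming, Bowtie2 alignment, duplicate handling with Picard and MACS2 calling at a q threshold of 0.05, and an input control is not given in the sources used here. The authors' peak lists were used as deposited, with a score per peak (not used), the fold enrichment as a ratio at the summit, and p-values and q-values as −log10. The deposited values carry no read counts, so depth could not be used. The study's methods also describe filtering of peaks against a blacklist, a repeat list and DNase I data. No such filter was applied to the lists here, so the sites counted are not the paper's filtered set.

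Percentiles were mid-ranks within a list over assembled chromosomes. Summits were extended by 200 bp and merged, and classed by list. Nearest starts came from all GENCODE vM21 transcripts, and a start peak is a summit within 1500 bp. Motifs were searched within 100 bases of the summit on both strands. Near copies were sought with blastn 2.17.0+ and counted on assembled chromosomes only. Analysis used Python 3.11.15, numpy 2.4.6, scipy 1.17.1 and matplotlib 3.10.9. On 3000 simulated sites the code recovered 100% of classes and of nearest starts, and 100% of 4500 planted words. Intervals and limits of a count of 0 cover counting error only.

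The genes named were the 6 members, genes between 50 kb before Fos and 50 kb after Batf, genes with the nearest start to a window site, 9 other AP-1 genes, and the 3 genes most like each member. For each member, sequences are those of the strongest site whose nearest start was the member's and of the strongest such site called in 1 list, leaving out sites with a summit in an annotated untranslated region (Jdp2, Batf2). The Fosb site 10.1 kb upstream, the sites between genes and the promoters were added after their values were seen, and the printed window was widened from 101 to 201 bases to match the motif search. RefSeq promoters matched 5 of 6 members. Members and gene lists were chosen with earlier results of these data known. Alternatives changed the window, the q threshold, the merging, the list length, the library labels, the starts, the H3K27me3 overlap and the motif window.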

Additional observations from a re-analysis of the deposited data

Results flagged for a closer look

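The H3K27me3 lists were outside the comparison of the RUNX1 libraries. The library titled untreated had 10 peaks in the 6 windows and the library titled DOX had 8 and were flagged because this is more than the 3 that a count of 0 allows, a limit that any window of this width passes easily and that is no measure of the usual number of peaks at a gene. They fell at Fosb (4 and 3), Jdp2 (2 and 2), Batf (1 and 0), Batf3 (2 and 3) and Atf3 (1 and 1), where the peak of the library titled DOX on the multicopy stretch counts for both Batf3 and Atf3. Over 21938 protein-coding genes the median in such a window was 0 peaks and the upper quartile 1 in each library, with none at 66.8% of genes (titled untreated) and at 64.7% (titled DOX). The difference between the libraries was not tested.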

How the results depend on the processing

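Of 59 alternative values over 10 counts, 36 stayed within 1.5 times the main count. With windows of 10 kb in place of 50 kb the sites numbered 14 (from 33), those in both lists 9 (from 21), those of the +DOX library alone 4 (from 11) and the H3K27me3 peaks of the library titled DOX 5 (from 8). With 100 kb there were 51 sites, 34 in both lists and 2 in the −DOX library alone (from 1). At −log10 q of at least 5, the +DOX library alone had 7. At −log10 q of at least 10 there were 12 sites, 8 in both lists, 3 in the +DOX library alone, 5 with a member as nearest start (from 10), 1 H3K27me3 peak in each library and 1 member with a shared start site (from 4). Extending summits by 100 bp gave 4 sites in the −DOX library alone, and equal list lengths gave 4 there and 7 in the +DOX library alone. With the libraries exchanged the counts were 11 for −DOX and 1 for +DOX, by construction. Taking starts of protein-coding genes alone, a member was nearest at 18 sites. Shorter RUNX words were at 13 sites (from 7) and the RUNX word within 50 bp at 4. Without the sites that have a near copy, a setting added after the data were seen, 31 sites remained, 19 of them in both lists. No paired analysis was possible because each condition had 1 library. Shares over all sites or genes at these settings are not given, and causes of the changes were not tested. Without read counts, a site missing from a list cannot be told from a site below its threshold.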
